A study of Mus musculus with 9 samples.

Results

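The 10 genes described here encode proteins that sense, take up or export bile acids. They were taken by a list of symbols, drawn up with earlier results of these data known, from the 55822 gene IDs of a bulk RNA-Seq count table of the mouse extrahepatic bile duct (EHBD). The receptor group holds Gpbar1, Nr1h4, Nr0b2 and S1pr2, the uptake group holds Slc10a2, and the export group holds Slc51a, Slc51b, Abcc1, Abcc3 and Abcc4. EHBDs were collected 24 hours after bile duct ligation (BDL) from 5 mice, 3 female and 2 male, and 24 hours after sham surgery from 4 mice, 2 of each sex. All mice were adult WT animals of the C57BL/6J strain (C57BL/6 in the labels), both groups had the abdomen opened, and BDL tied off the distal end of the duct near the duodenum. Whole ducts were used with no sorting of cells, each library came from 1 mouse, and no age was given in the sources used here. Both sham females had an animal name of 1 digit in the sample sheet and both sham males one of 4 digits, so that sex and the form of the name cannot be told apart in sham mice.

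Bile acids are detergents made from cholesterol in hepatocytes, and the cells that line bile ducts, the cholangiocytes, are exposed to them at high concentration. Cholangiocytes take up conjugated bile acids at the luminal membrane through a sodium-dependent carrier and pass them back to the blood through exporters of the basolateral membrane, and this loop is known as the cholehepatic shunt. Bile acids are also signals: nuclear receptors read them inside the cell and G protein-coupled receptors read them at the surface. In the liver, an obstructed duct is known to shift cells from uptake and synthesis to export through basolateral carriers.

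BDL libraries held 23067967 to 29991945 counts (median 25677473), and sham libraries held 24101163 to 27025227 (median 26206569). Levels are given as normalized counts, the estimated count of a gene divided by DESeq2's size factor for the library, which ran between 1.22 and 1.63 in BDL and between 0.434 and 1.17 in sham libraries. All 12 cholangiocyte markers checked, among them Krt19, Epcam and Sox9, were detected in all 9 libraries. Genes of pancreatic acinar cells took 0.01% to 2.42% of the counts after BDL (median 0.188%), against 15.2% to 37.5% in sham EHBDs (median 31.1%), and all 20 acinar markers were lower after BDL. The groups thus did not overlap in the acinar share, so that surgery and the acinar content of the sample cannot be told apart for any gene below. The summed level of the cholangiocyte markers was 328970 to 490410 normalized counts after BDL, against 141690 to 205570 in sham EHBDs. BDL replicate 4 stood apart, with the highest cholangiocyte sum (490410) and the lowest sums of macrophage (7158) and fibroblast markers (12414) of all 9 libraries. In whole tissue, fewer cells of a type and less RNA per cell cannot be told apart.

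All 10 genes had at least 10 counts over the 9 libraries and entered the test. By edgeR's quasi-likelihood test with sex as a further term, adjusted over 21299 genes, 4 of them rose after BDL at an adjusted p under 0.05 (Gpbar1, Abcc1, Abcc3 and Abcc4), 1 fell (Nr0b2) and 5 did not pass. Over all tested genes, 21.4% were higher and 19.9% were lower, or 41.4% in either direction, so that 5 of 10 is close to the share over all genes. Groups did not overlap for 4 of the 10 genes: Abcc1, Abcc3 and Abcc4 had every BDL library above every sham library, and Nr0b2 had every BDL library below. Over all tested genes, 38.2% did not overlap, 19.2% with BDL above and 19% with BDL below. The median log2 fold change of the 10 genes was 0.88, and the median over all genes was -0.03. Slc51b had no count in sham EHBDs, and the median of 0.88 also held with that gene set at the value that 3 sham counts would give.

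**Figure D1:**
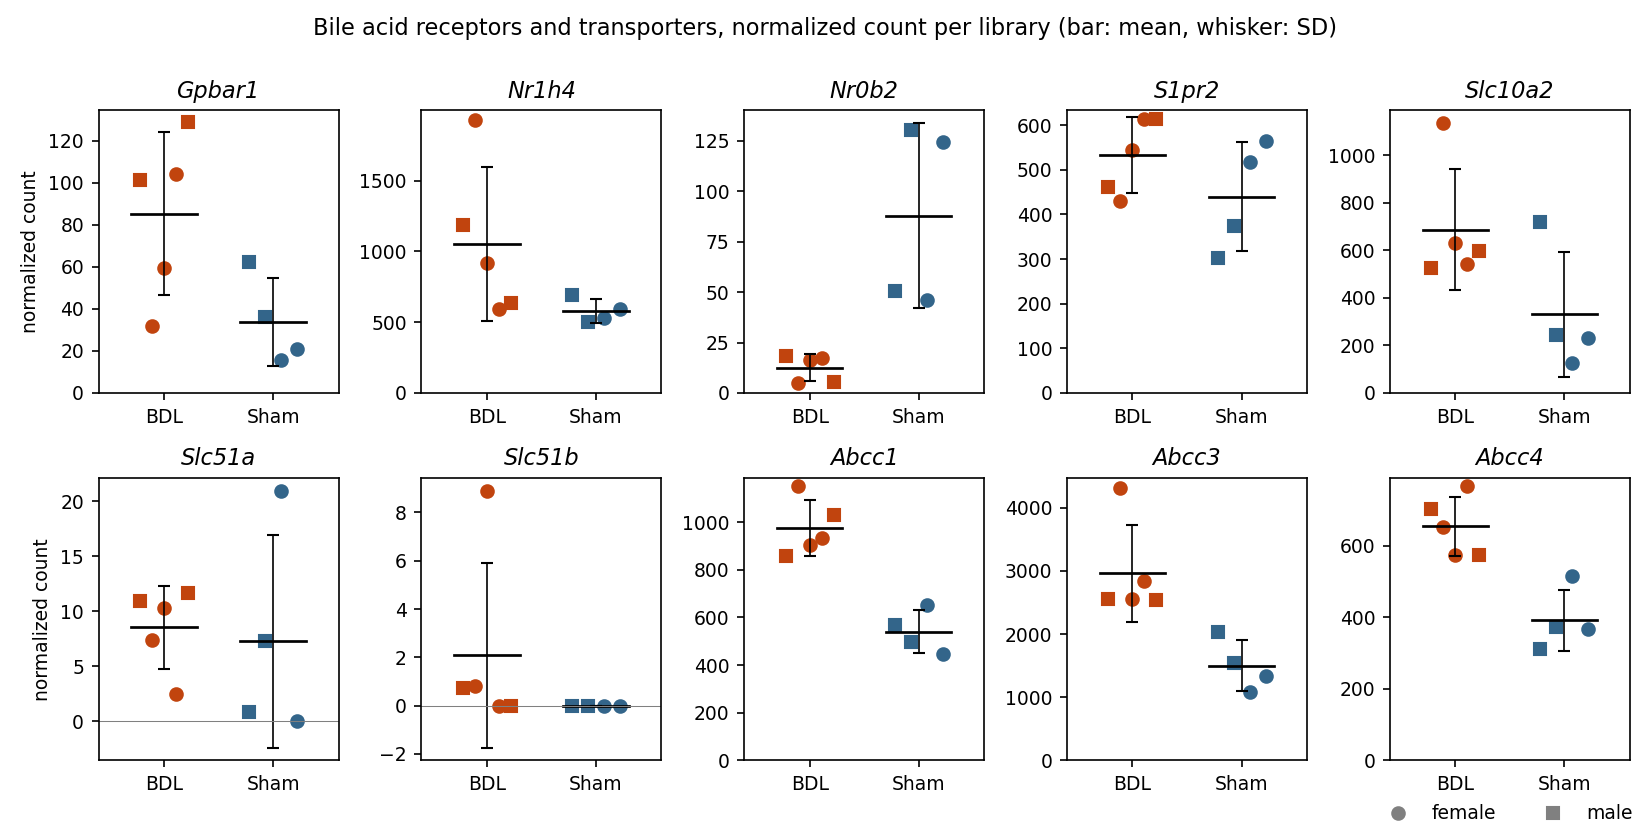
Normalized count of each gene in each library (circles female, squares male), with the BDL group on the left and the sham group on the right of each panel, bars at the mean and whiskers of 1 SD on a linear axis. Abcc1, Abcc3 and Abcc4 show every BDL library above every sham library, Nr0b2 shows every BDL library below, and the other 6 genes overlap.

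Among the receptors, Gpbar1 was higher and Nr0b2 was lower after BDL, while Nr1h4 and S1pr2 did not pass the test. Gpbar1 (TGR5) is the G protein-coupled bile acid receptor of the cell surface, which raises cyclic AMP and is known from macrophages and from the cilia of cholangiocytes. The gene lies on chromosome 1 of GRCm39 from 74316047 to 74318870, on the plus strand. Gpbar1 had 101, 31.9, 59.6, 104 and 129 normalized counts in BDL replicates 3, 4, 6, 8 and 10, against 62.5, 36.3, 15.7 and 20.7 in sham replicates 1, 2, 5 and 7. In all, 4 of the BDL libraries were above 3 of the sham libraries, the groups overlapped through BDL replicate 4 and sham replicate 1, and BDL replicate 4 was the lowest of its group. Means were 85.2 ± 38.7 (SD, n = 5) after BDL and 33.8 ± 21.0 (SD, n = 4) in sham EHBDs, with a log2 fold change of 1.57 (95% interval 0.64 to 2.50, adjusted p = 0.013). The gene was called with each library left out (log2 fold change 1.31 to 1.85) but not without the sex term (1.34, adjusted p = 0.0529) or with acinar level as a covariate (2.04, adjusted p = 0.127). Within each sex the groups did not overlap, with log2 ratios of the means of 1.84 in females and 1.22 in males. Here and below, such a split rests on 3 BDL and 2 sham libraries in females and 2 of each in males. Genes that did not pass the test were split in the same way, Nr1h4 and Slc10a2 in females and S1pr2 and Slc51a in males.

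Of 10 macrophage markers, 2 were higher after BDL (Cd68 and Cd14), none was lower and 8 did not pass. The median log2 fold change of the 10 markers was -0.72. Their summed level was 34461, 7158, 23382, 41006 and 28425 normalized counts in BDL replicates 3, 4, 6, 8 and 10, against 32332, 28817, 27726 and 16921 in sham replicates 1, 2, 5 and 7. The lowest sum was that of BDL replicate 4, which also had the lowest Gpbar1 level after BDL. Whether macrophage content had a part in the Gpbar1 level was not tested.

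Nr1h4 encodes FXR, the nuclear bile acid receptor that pairs with RXR and, in liver and ileum, switches on Nr0b2, Slc51a and Slc51b. It lies on chromosome 10 from 89289742 to 89369497, on the minus strand. Nr1h4 had 1187, 1925, 918, 596 and 632 normalized counts in BDL replicates 3, 4, 6, 8 and 10, against 692, 504, 527 and 590.2 in sham replicates 1, 2, 5 and 7. BDL replicates 3, 4 and 6 were above all sham libraries, and BDL replicates 8 and 10 were within the sham range. The log2 fold change of 0.88 (95% interval 0.12 to 1.63, adjusted p = 0.0631) did not pass 0.05, and without BDL replicate 4 it was 0.56 (adjusted p = 0.0728). With acinar level as a covariate it was 0.13 (adjusted p = 0.927). It passed with DESeq2 (0.84, adjusted p = 0.0369) and without BDL replicate 8 (1.01, adjusted p = 0.0255) or BDL replicate 10 (1.06, adjusted p = 0.04).

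Nr0b2 encodes SHP, an orphan nuclear receptor without a DNA-binding domain that represses other nuclear receptors and is known in liver as the step between FXR and the shutdown of bile acid synthesis. It lies on chromosome 4 from 133280678 to 133283847, on the plus strand. Nr0b2 had 18.2, 4.91, 16.4, 17.2 and 5.42 normalized counts in BDL replicates 3, 4, 6, 8 and 10, against 50.5, 131, 45.9 and 124 in sham replicates 1, 2, 5 and 7. Every BDL library was below every sham library, and the sham libraries fell into a lower pair (replicates 1 and 5) and a higher pair (replicates 2 and 7). These levels rest on few reads, 6 to 28 counts in a BDL library and 35 to 72 in a sham library. Means were 12.4 ± 6.67 (SD, n = 5) after BDL and 87.9 ± 45.9 (SD, n = 4) in sham EHBDs, and the log2 fold change was -2.74 (95% interval -3.99 to -1.50, adjusted p = 0.0034). The level after BDL was 0.149 of that in sham EHBDs, and the call held with each library left out (log2 fold change -3.06 to -2.42). It ended with acinar level added to the fit as a covariate (log2 fold change -1.63, standard error 1.05, adjusted p = 0.396). The acinar share of the counts was 2.42%, 0.0134%, 0.01%, 1.32% and 0.188% in BDL replicates 3, 4, 6, 8 and 10, against 15.2%, 34.2%, 28.1% and 37.5% in sham replicates 1, 2, 5 and 7. The pair of sham libraries with the higher Nr0b2 level was also the pair with the highest acinar shares. That pair also had the smallest size factors, which were 1.17, 0.551, 0.763 and 0.434 in sham replicates 1, 2, 5 and 7. Before scaling, the Nr0b2 counts of these libraries were 59, 72, 35 and 54 and did not fall into the same pairs.

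The promoter of Nr0b2 is shown because Nr0b2 was the one gene of the 10 that fell, and because its start region holds a repeated nuclear receptor motif. The window spans 250 bases before to 50 bases from the annotated start of the gene, chr4:133280428-133280727 of GRCm39, plus strand, with matches to TCAAGG, the core letters bound by LRH-1 (Nr5a2), in capitals.
Nr0b2: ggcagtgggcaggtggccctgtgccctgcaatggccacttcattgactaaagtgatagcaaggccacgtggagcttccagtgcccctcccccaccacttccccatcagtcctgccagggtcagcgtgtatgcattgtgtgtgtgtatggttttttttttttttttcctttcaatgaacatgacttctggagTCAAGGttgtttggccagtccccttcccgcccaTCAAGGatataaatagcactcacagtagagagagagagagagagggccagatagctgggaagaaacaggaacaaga
The first letters of the matches lie at -59 and -26 from the start. TCAAGG was searched on both strands, and it was taken after the windows had been seen. Of 21770 promoters of protein-coding genes, 14.9% held it at least once and 1.28% at least 2 times. Among the members Slc51a held it too, once. AGGTCA, the half-site of many nuclear receptors, was in 15.1% of all promoters and in those of Nr1h4, S1pr2 and Slc51b. The inverted repeat of AGGTCA with 1 base between the copies, known as the preferred site of FXR with RXR, was in 1.33% of all promoters with up to 2 mismatches and in none of the 9 member windows searched, which says only that the letters are not in these windows.

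S1pr2 encodes a sphingosine 1-phosphate receptor that conjugated bile acids also activate in hepatocytes and cholangiocytes. It lies on chromosome 9 from 20873657 to 20914139, on the minus strand. S1pr2 had 460.4, 431, 545, 615 and 613 normalized counts in BDL replicates 3, 4, 6, 8 and 10, against 303, 374, 518 and 565 in sham replicates 1, 2, 5 and 7. The groups overlapped, and the 2 lowest libraries were the sham males. The log2 fold change was 0.33 (95% interval -0.09 to 0.75, adjusted p = 0.191), an interval that leaves room for no difference and for a level 1.69 times as high, and no alternative setting brought it past the threshold.

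Slc10a2 encodes ASBT, the sodium-dependent carrier by which cholangiocytes, ileal enterocytes and kidney tubules take up bile acids. It lies on chromosome 8 from 5133219 to 5155351, on the minus strand. Slc10a2 had 528, 1136, 629, 543 and 598 normalized counts in BDL replicates 3, 4, 6, 8 and 10, against 719, 245, 127 and 233 in sham replicates 1, 2, 5 and 7. The groups overlapped only through sham replicate 1, which was above 4 of the BDL libraries, and BDL replicate 4 was the highest of all. Means were 687 ± 254 (SD, n = 5) after BDL and 331 ± 264 (SD, n = 4) in sham EHBDs, and the log2 fold change of 1.24 (95% interval 0.12 to 2.36, adjusted p = 0.0737) did not pass 0.05. Without sham replicate 1 it was 1.83 (adjusted p = 0.00377), and without BDL replicate 4 it was 0.98 (adjusted p = 0.0917). DESeq2 called the gene (1.21, adjusted p = 0.0188), and with acinar level as a covariate the value turned to -0.12 (adjusted p = 0.942). Sham replicate 1 had the lowest acinar share of the sham group (15.2%).

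For Slc10a2, the group means lay farther apart in females than in males. In females the means were 769 normalized counts after BDL and 180.0 in sham EHBDs, a log2 ratio of 2.10, and the groups did not overlap. In males they were 563 after BDL and 482 in sham EHBDs, a log2 ratio of 0.22, with overlap. The test of the difference itself gave -1.90 for males minus females (95% interval -3.59 to -0.21), and it failed the correction over all genes (adjusted p = 0.9999 from edgeR). Sham replicate 1 is 1 of the 2 sham males. When the mice were split by name form, the log2 ratio of the means was 2.29 for names of 1 digit and 0.21 for names of 4 digits. Over all genes edgeR called 0 of 21299 for a difference between the sexes in BDL against sham, with 544 at an unadjusted p under 0.05, and DESeq2 called 5, with 547 at an unadjusted p under 0.05.

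The heteromer of Slc51a and Slc51b, the organic solute transporter OSTα-OSTβ that moves bile acids out across the basolateral membrane, was close to absent from the counts. Slc51a lies on chromosome 16 from 32293322 to 32306842, on the minus strand, and Slc51b on chromosome 9 from 65319995 to 65330597, also on the minus strand. Slc51a had 10.9, 7.37, 10.3, 2.45 and 11.6 normalized counts in BDL replicates 3, 4, 6, 8 and 10, against 0.856, 7.25, 21.0 and 0 in sham replicates 1, 2, 5 and 7. With 79 counts over all libraries the ranges overlapped fully, and the log2 fold change of 0.28 had a 95% interval from -1.96 to 2.52 (adjusted p = 0.85). A difference of up to 5.74 times was thus not excluded at this depth. Without sham replicate 5 the value was 2.17 (adjusted p = 0.153), and without sham replicate 1 (-0.23) or sham replicate 7 (-0.05) its sign turned. Of the 3661 exon bases of Slc51a, 921 overlap Pcyt1a on the other strand. Whether the counting used strand is not given in the sources used here, so that part of this low signal could belong to either gene.

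Slc51b had 1, 1, 13, 0 and 0 counts in BDL replicates 3, 4, 6, 8 and 10, against 0 in each of the 4 sham libraries. Of these 15 counts, 13 came from BDL replicate 6. If the sham libraries together had held 3 counts, taken here as the limit for a count of 0, their pooled level would be 1.03 normalized counts. The pooled level after BDL, 2.15 normalized counts, was 2.09 times that limit. This ratio leaves out the counting error of the BDL libraries and the spread between mice, so that it sets no least fold change. Without BDL replicate 6 the pooled level after BDL was under the limit. Of the 1070 exon bases of Slc51b, 91 overlap Rasl12 on the other strand, with the same limit as for Slc51a. The test did not call the gene (adjusted p = 0.217). BDL replicate 6 also had the highest summed level of hepatocyte markers after BDL, 23203 normalized counts against 2867 to 5691 in the other BDL libraries. The sums of 17251 to 64587 in sham EHBDs came mostly from Cyp2e1 and Ttr (sham means 33028 and 6420), which were both lower after BDL. Each other hepatocyte marker had its highest BDL library above every sham library. Alb, for example, reached 3585 normalized counts after BDL, against at most 242 in sham EHBDs. BDL replicate 6 also had the highest enterocyte marker sum after BDL, 5254 normalized counts against 2569 to 3165 in the other BDL libraries. Its neutrophil and endothelial marker sums were the highest after BDL too. A part of hepatocytes or of these other cells in the Slc51b counts was not tested.

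The 3 exporters of the ABCC family rose together. Abcc1, Abcc3 and Abcc4 encode MRP1, MRP3 and MRP4, ATP-driven pumps of the basolateral membrane that carry bile acids and other organic anions, often as glucuronide, sulfate or glutathione conjugates, and MRP4 also exports cyclic nucleotides and prostaglandins. Abcc3 lies on chromosome 11 from 94233874 to 94283823, on the minus strand. Abcc3 had 2558, 4311, 2554, 2836 and 2536 normalized counts in BDL replicates 3, 4, 6, 8 and 10, against 2039.8, 1543, 1080.0 and 1335 in sham replicates 1, 2, 5 and 7. The groups did not overlap, 4 of the BDL libraries lay close to each other, and BDL replicate 4 stood far above them. Means were 2959 ± 766 (SD, n = 5) after BDL and 1499.5 ± 407 (SD, n = 4) in sham EHBDs, with a log2 fold change of 1.04 (95% interval 0.51 to 1.57, adjusted p = 0.00616). Without BDL replicate 4 the value was 0.88 (adjusted p = 0.00323). In females the log2 ratio of the means was 1.42 and in males 0.51, without overlap in either sex, and the difference between the sexes (-0.92 for males minus females, 95% interval -1.75 to -0.08) failed the correction (adjusted p = 0.9999 from edgeR). By the form of the animal name the log2 ratios were 1.51 for 1 digit and 0.56 for 4 digits.

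Abcc1 lies on chromosome 16 from 14179311 to 14293601, on the plus strand. It had 857, 1151, 904, 933 and 1029 normalized counts in BDL replicates 3, 4, 6, 8 and 10, against 567, 499, 653 and 445 in sham replicates 1, 2, 5 and 7. The lowest BDL library was above the highest sham library, and the spread within each group was small beside the gap between the means of 975 ± 117 (SD, n = 5) after BDL and 541 ± 89.7 (SD, n = 4) in sham EHBDs. The log2 fold change was 0.88 (95% interval 0.56 to 1.21, adjusted p = 0.00115), and it was nearly the same in females (log2 ratio of the means 0.86) and males (0.82).

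Abcc4 lies on chromosome 14 from 118720103 to 118943924, on the minus strand. It had 701, 653, 574, 766 and 575 normalized counts in BDL replicates 3, 4, 6, 8 and 10, against 312, 372, 514 and 367 in sham replicates 1, 2, 5 and 7. The groups did not overlap, with sham replicate 5 the nearest to the BDL libraries. Means were 654 ± 82.8 (SD, n = 5) after BDL and 391 ± 86.1 (SD, n = 4) in sham EHBDs, with a log2 fold change of 0.78 (95% interval 0.42 to 1.13, adjusted p = 0.0035). Within each sex the groups did not overlap either (log2 ratio of the means 0.59 in females and 0.90 in males).

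All 3 exporters were called with each library left out, with log2 fold changes of 0.77 to 1.0 for Abcc1, 0.86 to 1.23 for Abcc3 and 0.70 to 0.93 for Abcc4. With acinar level as a covariate Abcc4 was still called (log2 fold change 1.21, adjusted p = 0.032), and Abcc1 (0.61, adjusted p = 0.224) and Abcc3 (0.49, adjusted p = 0.495) were not. Of 12 cholangiocyte markers, 8 were also higher after BDL, 1 was lower (Sox9) and 3 did not pass, and the median of their log2 fold changes was 1.12. Epcam, an epithelial surface protein, was among those that did not pass. The part of a larger epithelial share of the RNA in the exporter levels was not tested. On the other strand, lncRNA genes overlap 511 of 15539 exon bases of Abcc1, 622 of 5971 of Abcc3 and 186 of 8637 of Abcc4.

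The promoters of Abcc3 and Abcc4 are shown because every BDL library was above every sham library for both genes. Each window spans 250 bases before to 50 bases from the annotated start, in GRCm39, and lies at chr11:94283753-94284052 on the minus strand for Abcc3 and chr14:118943865-118944164 on the minus strand for Abcc4. They are in lower case throughout, since no searched motif matched.
Abcc3: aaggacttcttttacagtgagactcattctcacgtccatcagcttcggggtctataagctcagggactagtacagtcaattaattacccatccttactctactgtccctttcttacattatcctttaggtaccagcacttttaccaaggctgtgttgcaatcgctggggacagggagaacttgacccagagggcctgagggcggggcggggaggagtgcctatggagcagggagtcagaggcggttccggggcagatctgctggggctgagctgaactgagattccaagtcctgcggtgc
Abcc4: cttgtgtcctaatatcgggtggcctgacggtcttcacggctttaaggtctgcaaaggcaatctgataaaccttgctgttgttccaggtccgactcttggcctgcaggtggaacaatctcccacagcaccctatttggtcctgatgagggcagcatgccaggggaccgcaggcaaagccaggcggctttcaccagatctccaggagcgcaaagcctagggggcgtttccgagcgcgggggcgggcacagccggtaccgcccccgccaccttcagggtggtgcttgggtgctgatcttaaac
The GC content was 53.3% for Abcc3 and 59.7% for Abcc4, beside a median of 54.3% over all 21770 promoters. The letters TGACNNNGC, the core of the antioxidant response element through which NRF2 is known to act on ABCC genes, were in 12.5% of all promoters and in none of the 9 member windows searched.

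**Figure D2:**
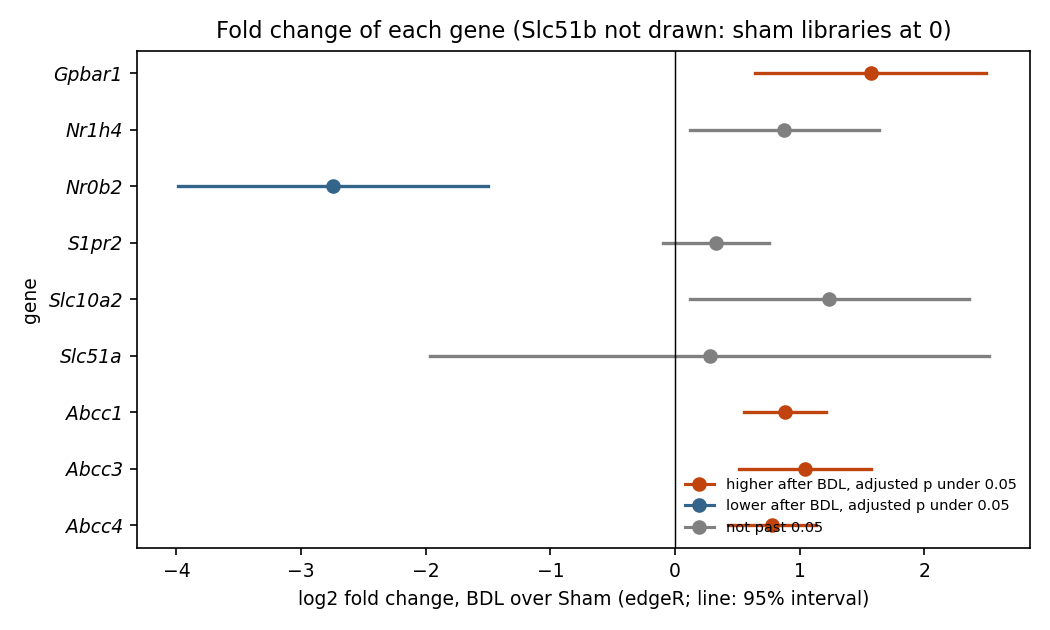
Log2 fold change of BDL over sham for each gene (points) with its 95% interval (lines) from edgeR's quasi-likelihood test, by role from receptors at the top to exporters at the bottom, without Slc51b, which had no count in sham EHBDs. Gpbar1, Abcc1, Abcc3 and Abcc4 lie above 0 and Nr0b2 below 0 with an adjusted p under 0.05, and the intervals of Abcc1 and Abcc4 are the narrowest of those called.

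To compare levels between genes, normalized counts were divided by the length of the canonical transcript in kilobases. Abcc3 was the highest of the 10 genes in both groups, with 563 ± 146 normalized counts per kilobase (SD, n = 5) after BDL and 285.5 ± 77.5 (SD, n = 4) in sham EHBDs. Nr1h4 followed with 454 ± 235 after BDL and 249.5 ± 36.4 in sham EHBDs, and Slc10a2 came next with 165 ± 61.3 after BDL and 79.7 ± 63.6 in sham EHBDs. After BDL the order went on with Abcc1 (141), Abcc4 (109), S1pr2 (83.3), Gpbar1 (54.5), Nr0b2 (10.9), Slc51a (3.09) and Slc51b (2.07). In sham EHBDs it went on with Abcc1 (78.3), Nr0b2 (77.0), S1pr2 (68.8), Abcc4 (65.0), Gpbar1 (21.6), Slc51a (2.63) and Slc51b (0). Nr0b2 was thus 1 of the 3 lowest genes after BDL, while in sham EHBDs it stood between Abcc1 and S1pr2.

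Most neighbours in these orders overlapped between libraries. After BDL the only neighbours without overlap were Gpbar1 over Nr0b2 and Nr0b2 over Slc51a, and in sham EHBDs they were Nr1h4 over Slc10a2, Abcc4 over Gpbar1 and Gpbar1 over Slc51a. With the length of all exons together in place of the canonical transcript, the levels of Nr1h4 were 217 per kilobase after BDL and 119 in sham EHBDs, and Abcc3, Nr1h4 and Slc10a2 kept the first 3 places in both groups. Per coding length, Nr1h4 was first after BDL and S1pr2 first in sham EHBDs.

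**Figure D3:**
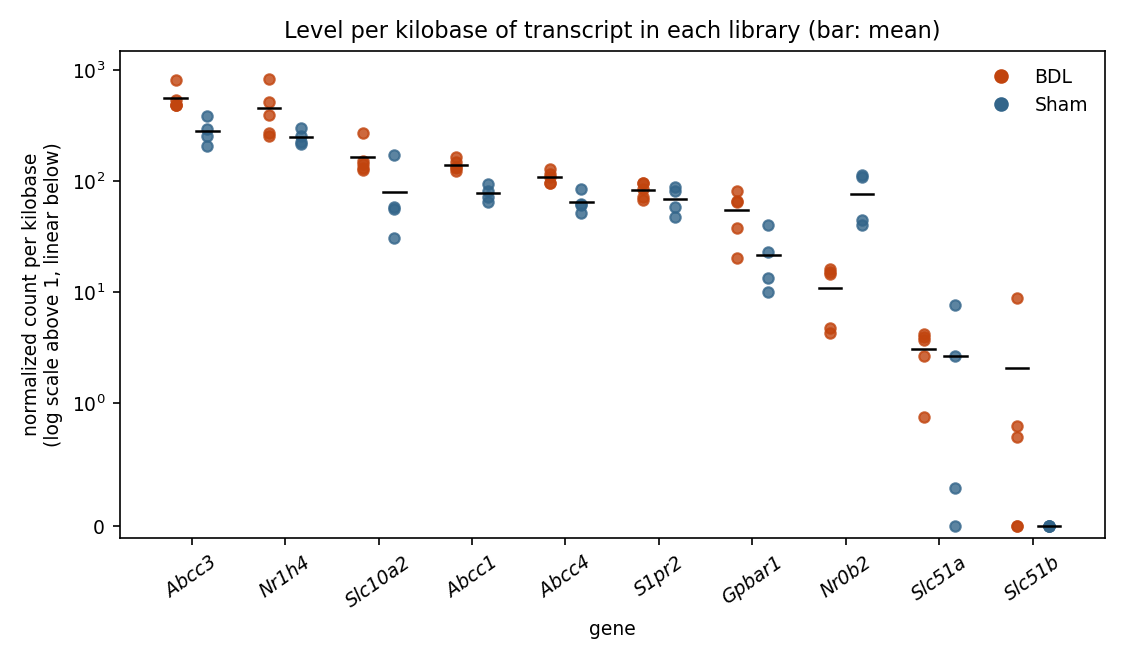
Normalized count per kilobase of canonical transcript in each library, BDL left and sham right for each gene, in order of the BDL mean (bars at the means), on an axis that is logarithmic above 1 and linear below. Abcc3 and Nr1h4 are the highest, Nr0b2 is the one gene whose BDL libraries lie under its sham libraries, and Slc51a and Slc51b are the lowest.

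For 1 gene of each role, the one of smallest p, the genes of most similar profile over the 9 libraries were found by the root mean square difference of centred log2(normalized count + 1). For Nr0b2 these were H2ac19 (0.339), Serpini1 (0.351) and Ubxn10 (0.498), among 11765 genes with a mean of at least 100 normalized counts. For Slc10a2 they were Tbpl1 (0.335), Hsph1 (0.347) and Pmaip1 (0.366), among 11764. For Abcc1 they were Rock2 (0.0984), Oxsr1 (0.1) and Vcl (0.107). The neighbours of Nr0b2 and of Slc10a2 were farther away by this measure than those of Abcc1. The mean of Nr0b2 was under the minimum of 100 set for its neighbours, so that its profile carries more counting error. Its group difference was also larger (log2 fold change -2.74, against 0.88 for Abcc1). The part of depth and of spread in these distances was not tested.

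In the 8 further lists, 20% to 50% of the genes tested were called, against 41.4% over all genes, and the counts below are a description of the lists only. Of 8 other receptors that read bile acids and RXR partners of the nuclear ones, none was higher, 4 were lower and 4 did not pass, with a median log2 fold change of -0.47. Rxra, the RXR form of liver and epithelium, averaged 1088 ± 34.3 normalized counts (SD, n = 5) after BDL and 1747 ± 103 (SD, n = 4) in sham EHBDs (log2 fold change -0.64, adjusted p = 0.000405). Rxrg, the RXR form of muscle and brain, had a log2 fold change of -1.99 (adjusted p = 0.00874), which missed the threshold without sham replicate 5 (adjusted p = 0.0501). Chrm3, a muscarinic receptor that some bile acids bind, fell with a log2 fold change of -1.44 (adjusted p = 0.000936). Of 10 other genes of the sphingosine 1-phosphate axis of S1pr2, none was higher and 2 were lower, the phosphatase gene Sgpp1 (-0.50, adjusted p = 0.00898) and the exporter gene Spns2 (-0.40, adjusted p = 0.0166), the second not without sham replicate 7 (adjusted p = 0.0598). S1pr1, the sphingosine 1-phosphate receptor of endothelium and lymphocytes, had -0.65 (adjusted p = 0.0645) and passed under 6 of the alternatives, DESeq2 among them. The lyase gene Sgpl1 had -0.12 and the phosphatase gene Sgpp2 had 0.33, and neither passed.

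Of 18 genes that raise, break down or respond to cyclic AMP, the second messenger of Gpbar1, 1 was higher and 7 were lower. The other 10 did not pass, and the median log2 fold change of this mixed list was -0.49. Prkar2a, a regulatory subunit of protein kinase A, averaged 3506 ± 531 normalized counts (SD, n = 5) after BDL and 1615 ± 116 (SD, n = 4) in sham EHBDs (log2 fold change 1.16, adjusted p = 0.000166). Rapgef3, which encodes the cyclic AMP sensor EPAC1, fell (-1.51, adjusted p = 0.00176), as did the adenylyl cyclase gene Adcy4 (-0.96, adjusted p = 0.00275) and the phosphodiesterase gene Pde4a (-1.17, adjusted p = 0.00415). Gnas, which encodes the stimulatory G protein subunit used by Gpbar1, had -0.40 (adjusted p = 0.0353), a call that ended with any library but sham replicates 1 and 7 left out (adjusted p up to 0.108). The kinase subunit genes Prkaca (0.03), Prkacb (-0.24) and Prkar1a (0.08) and the factor gene Creb1 (-0.07) did not pass.

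Of 6 genes tested in the list of other uptake carriers, which also holds Fabp6, the ileal bile acid binding protein, none was higher, 2 were lower and 4 did not pass, and their median was -1.13 on the log2 scale. Slco1a1, a carrier of hepatocytes, had no count in any library. Slco2b1, an organic anion carrier, averaged 153 ± 82.4 normalized counts (SD, n = 5) after BDL and 1882 ± 403 (SD, n = 4) in sham EHBDs (log2 fold change -3.58, adjusted p = 0.000384). Slco1a4, a related carrier, had -3.18 (adjusted p = 0.0417), and the call ended with any library but BDL replicates 4 and 6 left out (adjusted p up to 0.102), without the sex term and with the form of the animal name in its place. Without BDL replicate 6 the value was -5.37 (adjusted p = 0.00276).

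Of 9 canalicular and multidrug exporters, none was higher, 4 were lower and 5 did not pass, with a median log2 fold change of -0.20. Abcg5, which with Abcg8 secretes sterols into bile, fell with -2.03 (adjusted p = 0.000446). The P-glycoprotein genes Abcb1a (-1.06, adjusted p = 0.00404) and Abcb1b (-1.04, adjusted p = 0.0132) fell too, the second not without sham replicate 5 (adjusted p = 0.0647). Abcg2, a pump of conjugated anions, averaged 1504 ± 208 normalized counts (SD, n = 5) after BDL and 1498 ± 206 (SD, n = 4) in sham EHBDs, a log2 fold change of 0.05, and the flippase gene Atp8b1 had 0.53 (adjusted p = 0.0756). In the ABCC family outside the 3 exporters, 2 of 8 were higher, 2 were lower and 4 did not pass, with a median log2 fold change of -0.81. Cftr, the chloride channel of the family that drives ductal fluid secretion, averaged 789 ± 246 normalized counts (SD, n = 5) after BDL and 181 ± 49.0 (SD, n = 4) in sham EHBDs (log2 fold change 2.20, adjusted p = 9.28e-05). Abcc5, an exporter of cyclic nucleotides, had 0.77 (adjusted p = 0.0448), which passed no longer with any library but BDL replicate 8 left out (adjusted p up to 0.132). Abcc9 (-1.80, adjusted p = 0.00194) and Abcc8 (-2.39, adjusted p = 0.00938), the sulfonylurea receptor subunits of potassium channels in muscle and islet cells, fell. Without sham replicate 2 the value of Abcc8 was -1.71 (adjusted p = 0.033).

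Genes of bile acid synthesis and conjugation were measured for 14 of 15, since Cyp7a1, the rate-limiting enzyme of hepatocytes, had no count in any library. Of these, 1 was higher, 5 were lower and 8 did not pass, with a median log2 fold change of -0.51. Cyp27a1, the sterol 27-hydroxylase of the alternative pathway, averaged 34.3 ± 18.4 normalized counts (SD, n = 5) after BDL and 375 ± 48.9 (SD, n = 4) in sham EHBDs (log2 fold change -3.40, adjusted p = 0.000479). Cyp39a1, an oxysterol hydroxylase, fell with -1.97 (adjusted p = 0.00366), and Scp2, a sterol carrier and thiolase of peroxisomes, fell with -1.23 (adjusted p = 0.00244). Hsd3b7, an early enzyme of the pathway, had -0.40 (adjusted p = 0.046) and Hsd17b4, a peroxisomal enzyme, had -0.38 (adjusted p = 0.127). Acox2, the peroxisomal oxidase that shortens the side chain, had 1.14 (adjusted p = 0.0203). The call of Hsd3b7 ended with any library but BDL replicate 6 and sham replicates 1 and 7 left out (adjusted p up to 0.174), and that of Acox2 with BDL replicate 10 or sham replicate 2 or 5 left out (adjusted p up to 0.0705).

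Of 14 regulators of the pathway and genes of the FGF15 axis, 3 were higher, 3 were lower and 8 did not pass, with a median log2 fold change of 0.14. Hnf4a, a master factor of hepatocytes and gut epithelium, averaged 2311 ± 444 normalized counts (SD, n = 5) after BDL and 1455 ± 338 (SD, n = 4) in sham EHBDs (log2 fold change 0.69, adjusted p = 0.0139). Fgfr4, the receptor for FGF15, had 0.80 (adjusted p = 0.0329), while Klb, its co-receptor, fell with -3.25 (adjusted p = 0.00127). Rara, a retinoic acid receptor, had 0.32 (adjusted p = 0.0361). The call of Fgfr4 ended with any library but BDL replicates 8 and 10 and sham replicate 2 left out (adjusted p up to 0.0934), and that of Rara with any library but BDL replicates 4 and 6 and sham replicate 7 left out (adjusted p up to 0.11). Ppara fell (-1.83, adjusted p = 0.0163), but did not pass without BDL replicate 3 (adjusted p = 0.0518). Nr5a2, which encodes LRH-1, averaged 46.1 ± 7.33 normalized counts (SD, n = 5) after BDL and 114 ± 57.3 (SD, n = 4) in sham EHBDs (log2 fold change -1.23, adjusted p = 0.0212), and its call ended without BDL replicate 3, sham replicate 2 or sham replicate 7 (adjusted p up to 0.104). Nfe2l2, which encodes NRF2, had 0.54 (adjusted p = 0.0502) and passed under 8 of the alternatives, DESeq2 among them, and its inhibitor Keap1 had 0.03. Ahr (0.07), Foxa2 (-0.22) and Ncor1 (-0.15) did not pass.

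**Figure D4:**
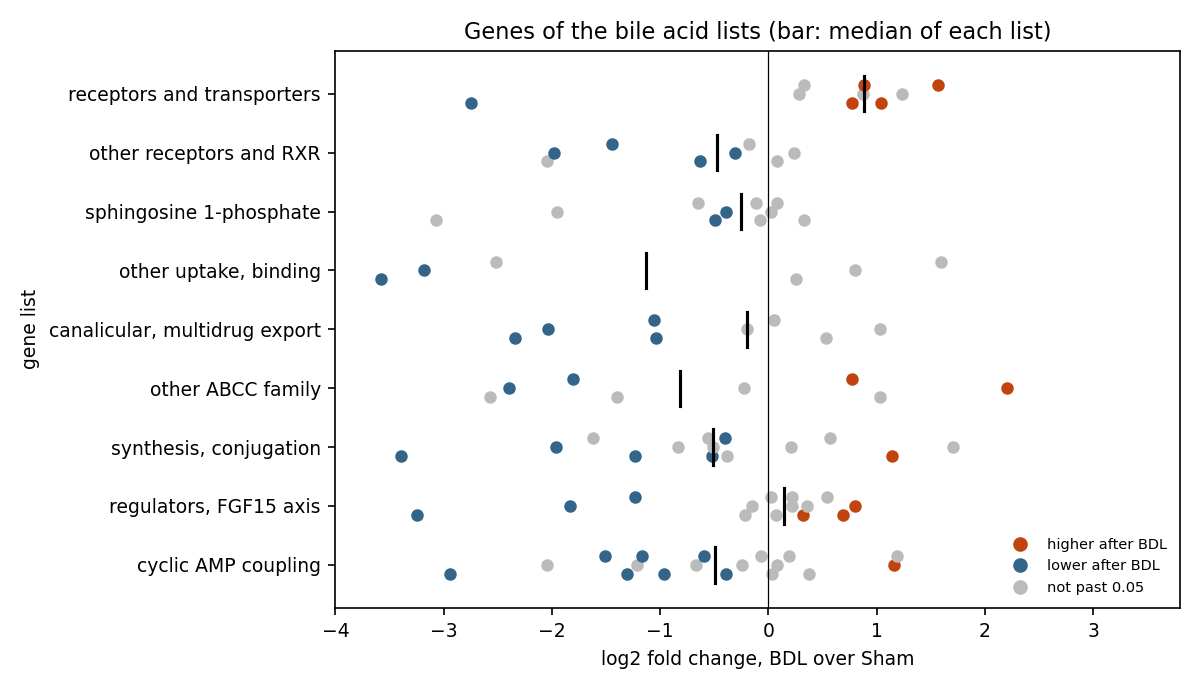
Log2 fold change of BDL over sham for each gene of the 10 described here (top line) and of 8 further lists, coloured by call, with a bar at the median of each list; Slc51b and Abcb11, which had no count in sham EHBDs, are counted in the medians but not drawn. The top line has its median at 0.88 and the medians of the other lists lie between -1.13 and 0.14. All lists were chosen with earlier results of these data known, so the medians are a description only. The cholangiocyte markers, not drawn, had a median of 1.12.

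Of the genes named from these further lists that passed the test, all but Cftr no longer passed with acinar level as a covariate. Markers of other cell types moved as well. Of 10 neutrophil markers, 9 were higher after BDL, with a summed level of 2949 to 28230 normalized counts, against 592 to 1747 in sham EHBDs. Of 8 endothelial markers, none was higher and 5 were lower, with sums of 4090 to 7408, against 8624 to 14507. Of 12 hepatocyte markers, 2 were lower (Ttr and Cyp2e1) and 10 did not pass. Enterocyte markers gave 1 higher, 2 lower and 4 not past the threshold among 7 tested of 10, and Sis, a defining enterocyte enzyme, was at 0 in all libraries. Of 6 smooth muscle markers, none was higher and 3 were lower, with sums of 2494 to 14390, against 9871 to 25960. Fibroblast markers gave 2 lower and 4 not past the threshold of 6, with sums of 12414 to 97505, against 76787 to 125410. The part of these shifts in the levels of the 10 genes was not tested.

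**Figure D5:**
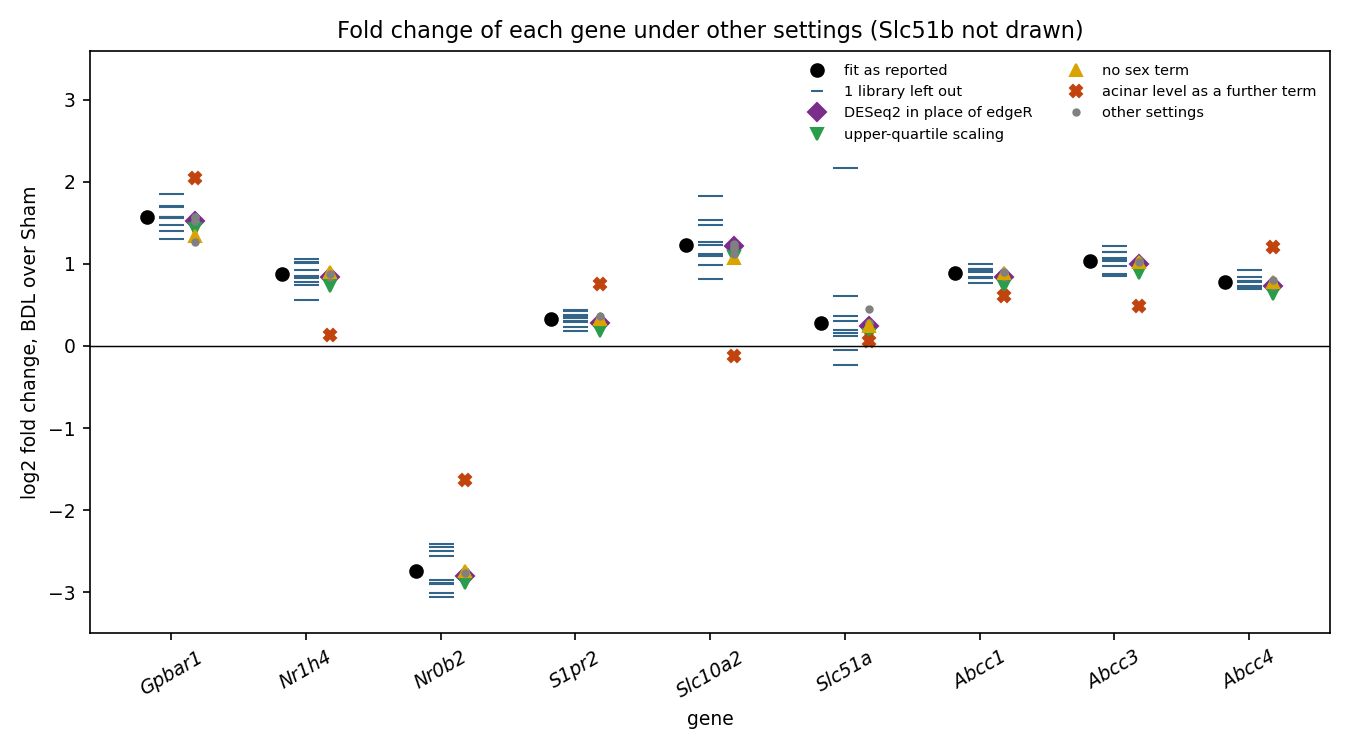
Log2 fold change of BDL over sham for each gene except Slc51b as reported (black), with 1 library left out (blue ticks) and under other settings (coloured marks). Abcc1, Abcc3, Abcc4, Gpbar1 and Nr0b2 keep their side of 0 in every setting drawn, while Slc10a2 crosses 0 with acinar level as a covariate and Slc51a with sham replicate 1 or 7 left out.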

How the data were processed

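Bulk RNA-Seq was run on whole EHBDs of 5 mice with BDL and 4 sham mice. The authors made libraries with the SMART-Seq mRNA kit, quantified trimmed reads with Salmon on a Gencode transcriptome of GRCm39 and used tximeta to sum transcripts to genes. They deposited estimated counts per gene, as whole numbers, for 55822 IDs, with no normalization by the authors and 27728 IDs at 0 in every library. Groups follow the labels, and sex follows the deposited sample sheet. No column of another sample was in the table (0 left out).

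The members and the gene lists were chosen with earlier results of these data known. Genes whose counts summed to 10 or more entered the fit by edgeR 4.0.16 in R 4.3.3 (quasi-likelihood test, TMM normalization, surgery and sex), p-values were adjusted by Benjamini-Hochberg over 21299 genes, and the threshold for a call was an adjusted p of 0.05. Standard errors are the log2 fold change over the root of F. The p-values set the difference between groups against the spread between libraries, each of 1 mouse, which also holds technical and dissection differences. Levels are counts over the size factors of DESeq2 1.42.0. Positions, transcript lengths and promoters are from GRCm39 with a later Gencode release than the counting used, in which 55261 IDs matched. Named genes are the 10 members, up to 3 genes of smallest p each way in each further list, genes of these lists with a mean of at least 1000 normalized counts, defining markers at 0 and 3 profile neighbours per role. As alternatives, the tool (DESeq2), the scaling (RLE, upper quartile, or TMM without acinar markers), the filter (none or filterByExpr) and the covariates (no sex, name form of the animal for sex, or acinar level added) were changed, and each library was left out. Values within a sex or a form of the animal name, the TCAAGG motif and the alternatives for the further lists were added after the data were seen. Some genes and sequences are not reported here, and the regulator list and the motif counts leave them out. The tests were tried on simulated counts, where a larger share of DESeq2's calls than of edgeR's was false and both missed part of the smaller changes. Counting error is covered only in part by these values, since reads without molecular identifiers are not independent molecules.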

Additional observations from a re-analysis of the deposited data

Results flagged for a closer look

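Of 19 groups of libraries checked for a library far from the others (10 genes in BDL and sham libraries, without Slc51b in sham libraries, which were all at 0), 3 held one, and chance alone gives about 1 in 20. Slc10a2 had 1136 normalized counts in BDL replicate 4, with a gap of 0.832 of the range of the BDL group to the next library. Abcc3 had 4311 normalized counts in the same library, with a gap of 0.831 of the range. Slc51b had 8.90 normalized counts in BDL replicate 6, from 13 counts, with a gap of 0.908 of the range.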

How the results depend on the processing

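Of the 10 genes, Abcc4 and S1pr2 kept their direction and their side of the threshold under all alternatives, with log2 fold changes of 0.63 to 1.21 and 0.18 to 0.76. With acinar level as a covariate, 1035 genes were higher and 324 lower over all genes, and of the 10 genes 1 was higher (Abcc4) and 0 were lower. Under that term the log2 fold change was 2.04 for Gpbar1 (adjusted p = 0.127), -1.63 for Nr0b2 (0.396), 0.61 for Abcc1 (0.224) and 0.49 for Abcc3 (0.495), and it turned to -0.12 for Slc10a2 (0.942) and -0.62 for Slc51b (0.88), whose fitted value depends on the prior count since sham EHBDs had no count. The acinar shares of the groups do not overlap, and the standard error of Abcc1 was 0.274 with the term, against 0.146 without it. Without the sex term Gpbar1 had 1.34 (0.0529) and Nr1h4 was called (0.90, 0.0421). Nr1h4 was also called with DESeq2 (0.84, 0.0369), no filter on low counts (0.88, 0.0181) and the name form in place of sex (0.88, 0.0424), and Slc10a2 with DESeq2 (1.21, 0.0188) and no filter (1.24, 0.0206).

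With 1 library left out the log2 fold change ranged from 1.31 to 1.85 for Gpbar1, 0.56 to 1.06 for Nr1h4, -3.06 to -2.42 for Nr0b2, 0.82 to 1.83 for Slc10a2 and -0.23 to 2.17 for Slc51a, which was -0.23 without sham replicate 1 and -0.05 without sham replicate 7. Between 3892 and 4523 genes were then higher and between 3284 and 4226 lower over all genes, and 4 or 5 of the 10 genes were higher and 1 lower. Upper-quartile scaling moved the median of all genes by -0.15 on the log2 scale and changed no call among the 10 genes.

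Of the named genes of the further lists that had passed, 1 turned, Abcc5 with acinar level as a covariate (-0.39). Among named genes that had not passed, that covariate gave -0.070 for Abcg2, -0.19 for Nfe2l2, -0.13 for Ahr and 0.043 for Prkacb. Upper-quartile scaling gave -0.093 for Abcg2, -0.12 for Keap1, -0.075 for Ahr, -0.12 for Prkaca and -0.068 for Prkar1a. Keap1 had -0.019 with DESeq2, -0.020 with RLE scaling and -0.017 with filterByExpr, and Prkaca had -0.016, -0.016 and -0.013. Leaving out a library took Abcg2 to between -0.013 and 0.18, Keap1 to between -0.046 and 0.083 and Ahr to between -0.071 and 0.18. Upper-quartile scaling ended the calls of Abcc5, Fgfr4 and Rara and made calls of S1pr1, Hsd17b4, Ncor1 and Prkacb. RLE scaling ended those of Abcc5 and Rara. No filter ended those of Rara and Gnas and made calls of S1pr1, Atp8b1 and Nfe2l2. DESeq2 called 5 genes of the sphingosine 1-phosphate axis lower, against 2 with edgeR.

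No paired analysis was run, since the sources used here do not state which BDL and sham mice belong together. The replicate numbers are library numbers and hold no pairing. The paper states that mice were matched by age and sex, with littermates as controls where this was possible, but litters are not given for these mice. A difference between litters was not tested. The genes of low count, Slc51a and Slc51b, are limited by depth, and Nr0b2 rests on 6 to 28 counts in a BDL library.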
